A study of Mus musculus with 20 samples.

Results

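The transcripts uc009vfb.1 and uc029sdt.2 had lower footprint densities on captured ribosomes than on total ribosomes in every line of mouse embryonic stem cells measured here. For uc029sdt.2 the line tagged at Rpl22 is not counted, since its low level there meant that it was listed through the totals alone. Both transcripts are among the 7605 common to the 12 ribosome profiling (Ribo-Seq) libraries. They were chosen by identifier after earlier results on these libraries had shown their low capture ratios. Their levels in captured and total ribosomes are therefore given as a description, with no test. Both are known here by their UCSC transcript identifiers alone: 0 of the 9498 transcript identifiers in the Ribo-Seq files matched the reference gene tables, so no gene name, position, length or sequence is given for either.

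The libraries came from E14 embryonic stem cells, a pluripotent mouse line kept undifferentiated with leukemia inhibitory factor. The question of the study was whether ribosomes that carry a particular ribosomal protein translate particular mRNAs. In each line 1 allele of a gene for a ribosomal protein had been tagged at its own locus, and ribosomes captured through the tag were set against all ribosomes of the same line, with 2 libraries per group. The groups were the RPL10A capture and total ribosomes of the 3xFLAG-Rpl10a line, the RPS25 capture and total ribosomes of the Rps25-3xFLAG line, and the RPL22 capture and total ribosomes of the Rpl22-3xHA line. The FLAG captures were incubated with anti-FLAG M2 magnetic beads for 2 h. For RPL22, lysate was incubated with an anti-HA antibody for 4 h and then with protein A beads. All cells received 100 µg/ml cycloheximide, an elongation inhibitor, for 1 min before harvest. Lysates were spun to clear nuclei and mitochondria and then digested with RNases A and T1. Because the other allele was untagged in every line, ribosomes with an untagged copy of the protein could not be captured through it. The protocol text of the Rpl22 line differs in listing no heparin in the lysis buffer, and an anti-HA antibody is entered in the labels of its total libraries, which are total by title. The series also holds RNA-seq of light and heavy polysome fractions, from wild-type cells treated with Rpl10a siRNA or control siRNA. These 8 libraries hold no value for either transcript in the files used here, so their mRNA level was not analysed here.

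A ribosome protects the stretch of mRNA it sits on from RNase, and the protected fragments, called footprints, are sequenced to show which mRNAs are being read and how densely. A sucrose cushion pellets every particle dense enough to pass through it, whereas a capture keeps what is bound through the tagged protein or adheres to the beads. RPL10A and RPL22 are proteins of the large ribosomal subunit and RPS25 belongs to the small subunit. Footprint density is given in RPKM (reads scaled to transcript length and library size), so levels of different transcripts can be set side by side.

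The median transcript of a library had between 23.7 and 25.45 RPKM. The files hold no counts, so the read depth behind a value is unknown. Replicates correlated least in the RPS25 capture (Pearson r = 0.973 across transcripts, log2 scale) and most in the totals of the Rpl22 line (r = 0.995). Replicates are not stated to be separate cultures, so the tests below measure the spread between libraries, which may be technical. Embryonic stem cell markers could not be checked, as identifiers were not matched to gene names.

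uc009vfb.1 was an abundant transcript on total ribosomes and a middling to moderately abundant one after capture. In the RPL10A line it had 77.8 and 86.5 RPKM in the captures, against 607 and 640 RPKM in the totals. The capture mean was 82.2 ± 6.15 RPKM and the total mean 624 ± 23.8 RPKM (SD, n = 2 each), so captured ribosomes held 13.2% of the total density. Both replicates of each group lay close together, and the groups were far apart.

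In the RPS25 line uc009vfb.1 had 66.3 and 37.4 RPKM in the captures, against 600 and 517 RPKM in the totals. The captures averaged 9.28% of the totals, at 51.9 ± 20.4 RPKM against 559 ± 58.8 RPKM (SD, n = 2 each). The capture replicates differed 1.77-fold, and the lower of the totals was still well above the higher capture.

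In the RPL22 line uc009vfb.1 had 22.6 and 152 RPKM in the captures, against 457 and 389 RPKM in the totals. The mean of the captures was 87.4 ± 91.6 RPKM and that of the totals 423 ± 48.1 RPKM (SD, n = 2 each). The capture replicates differed 6.73-fold, the widest gap between replicates in any group of either transcript. The first RPL22 capture library held the lowest value of uc009vfb.1 in the series and the second held the highest value among captures, yet both lay below every total library. Paired in every possible way within this line, a capture held between 4.94% and 39.1% of a total.

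Over all lines, the 6 captures of uc009vfb.1 lay below the 6 totals without overlap, with the lowest total 2.56 times the highest capture. The median was 72.05 RPKM over captures and 559 RPKM over totals. The order of the group means was, from the top, Rpl10a total, Rps25 total, Rpl22 total, RPL22 capture, RPL10A capture and RPS25 capture. Among the captures no order held beyond the spread, since the RPL22 capture libraries enclosed both of the other groups.

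**Figure D1:**
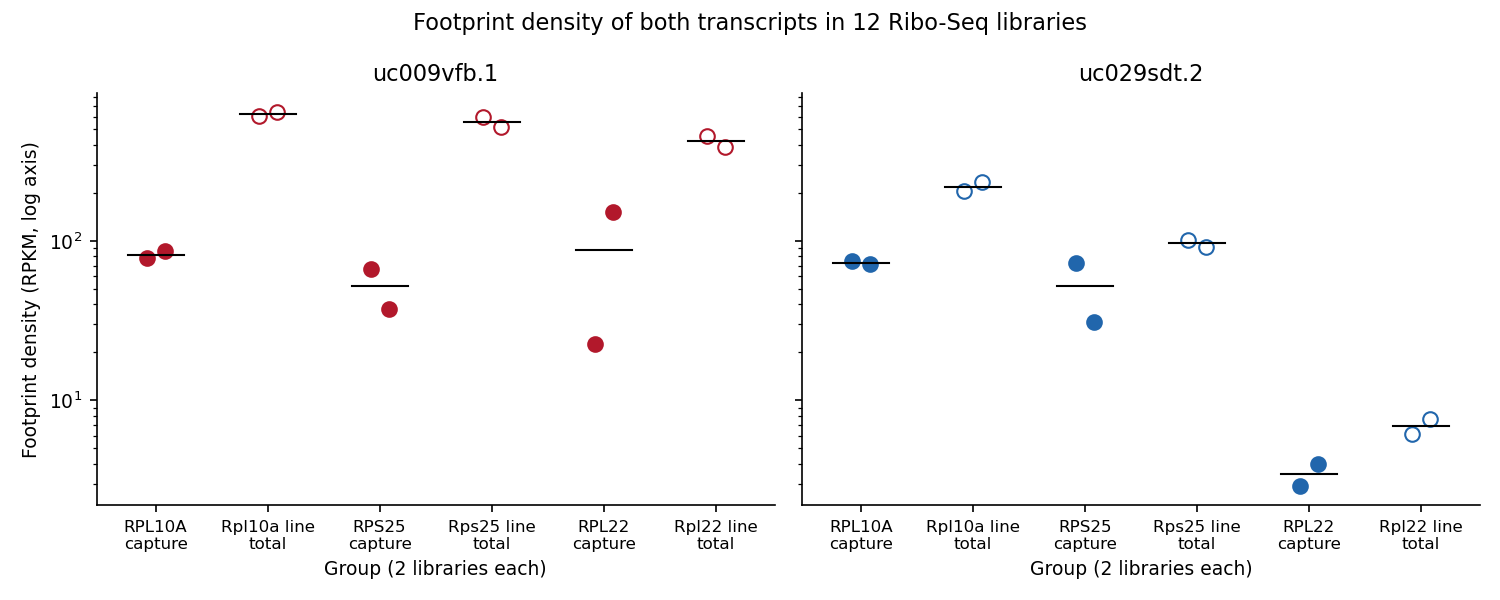
Footprint density (RPKM, log axis) of uc009vfb.1 (left) and uc029sdt.2 (right) in each of 12 libraries; filled points are captures, open points totals, and lines mark the mean of the 2 libraries of a group. uc009vfb.1 stands between 22.6 and 152 RPKM in captures and between 389 and 640 RPKM in totals, whereas uc029sdt.2 is under 8 RPKM in all 4 libraries of the Rpl22 line.

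uc029sdt.2 was lower in capture than in total in each line by a smaller factor, and its level depended strongly on the line. In the RPL10A line it had 74.5 and 71.2 RPKM in the captures, against 205 and 233 RPKM in the totals. The captures averaged 33.3% of the totals, at 72.9 ± 2.33 RPKM against 219 ± 19.9 RPKM (SD, n = 2 each). Replicates of the same group lay within 1.14-fold of each other.

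In the RPS25 line uc029sdt.2 had 72.9 and 31.0 RPKM in the captures, against 102 and 91.8 RPKM in the totals. The mean was 52.0 ± 29.6 RPKM in captures and 96.8 ± 7.07 RPKM in totals (SD, n = 2 each). The groups did not overlap, but the capture replicates differed 2.35-fold, so that a capture held from 30.5% to 79.4% of a total depending on the libraries paired. The second RPS25 capture library was the lower of its pair for both transcripts.

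In the RPL22 line uc029sdt.2 had 2.9 and 4.0 RPKM in the captures, against 6.2 and 7.7 RPKM in the totals. Captures averaged 3.45 ± 0.778 RPKM and totals 6.95 ± 1.06 RPKM (SD, n = 2 each). Every transcript in the files of this line reaches at least 5 RPKM in some library. uc029sdt.2 thus had its place in these files through the totals alone. With both captures below 5 RPKM, it could be listed only if a total was higher. Its lower captures in this line are therefore not counted as adding to the pattern. In level it ranked 8580th of 8588 transcripts in the RPL22 captures and 7656th in the totals.

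The group means of uc029sdt.2 ran, from the top, Rpl10a total, Rps25 total, RPL10A capture, RPS25 capture, Rpl22 total and RPL22 capture. The RPL10A and RPS25 captures overlapped. All 4 libraries of the Rpl22 line lay below every library of the FLAG lines. In contrast to uc009vfb.1, the total levels of the FLAG lines and the Rpl22 line thus lay further apart than capture and total of any line. Between the FLAG lines the total means differed 2.26-fold, less than the 3.00-fold between capture and total in the RPL10A line.

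On the scale used for all transcripts, log2(RPKM + 1), uc009vfb.1 had capture minus total values of −2.91 for RPL10A (SE 0.15), −3.46 for RPS25 (SE 0.25) and −2.81 for RPL22 (SE 0.64). It had the lowest value of all transcripts in each line, of 8505, 8779 and 8588. uc029sdt.2 had values of −1.57 for RPL10A (SE 0.16), −1.01 for RPS25 (SE 0.36) and −0.84 for RPL22 (SE 0.19), which ranked 18th, 63rd and 6th from the bottom. Its RPL22 rank is not counted, as uc029sdt.2 was listed there through the totals alone. Over the 7605 common transcripts the medians of these log2 values were −0.0050 for RPL10A, 0.0035 for RPS25 and −0.037 for RPL22, with SDs across transcripts of 0.41, 0.33 and 0.22. As context for these choices, limma called 0.611% of transcripts lower in the RPL10A capture, 0.0114% in the RPS25 capture and 0% in the RPL22 capture at an adjusted p below 0.05. At an unadjusted p below 0.05 the same fit of the RPL22 line had 972 of 8588 transcripts lower.

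Values below 0 in all lines were common, at 1515 of the 7605 common transcripts or 19.9%, but most were small. uc009vfb.1 was the 1 common transcript below −1 on the log2 scale in all lines. uc029sdt.2 was the only other below −0.8 in all lines, a limit just above its own value of −0.84 for RPL22. With a pseudocount of 5 that value was −0.50, above the limit. The RPL22 value is also not counted, since uc029sdt.2 was listed there through its totals alone. For uc029sdt.2, only the FLAG lines can therefore show lower captures. Averaged over the lines, uc009vfb.1 stood at −3.06, the lowest of the common transcripts. With its RPL22 value included, uc029sdt.2 averaged −1.14, the 3rd lowest. Between them came uc008zah.2 with a mean of −1.18, whose values of −1.37 for RPL10A and −2.02 for RPS25 contrasted with −0.14 for RPL22. These positions describe how the pair was found and are no evidence for it.

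**Figure D2:**
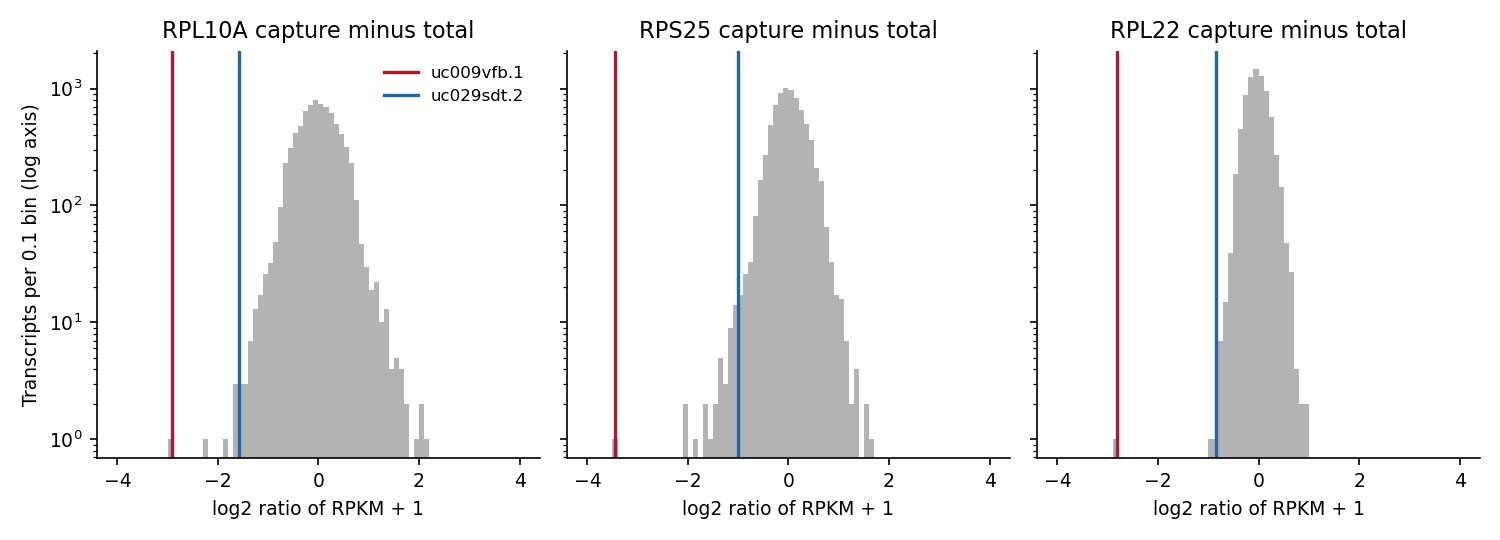
Distribution of the log2 capture-to-total ratio (RPKM + 1) over 7605 common transcripts in each line, in bins of 0.1 with a log count axis; coloured lines mark both transcripts. uc009vfb.1 lies apart from the rest at −2.91, −3.46 and −2.81, and uc029sdt.2 lies at the lower edge at −1.57, −1.01 and −0.84.

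Among transcripts at or above the median mean level of 28.9 RPKM, the next lowest averages belonged to uc009guh.1, uc008szp.1, uc008sje.2, uc008bzy.1 and uc009euv.1. Their means over the lines ran from −0.78 for uc009guh.1 to −0.67 for uc009euv.1 on the log2 scale. uc008szp.1 alone among these had every line below −0.5, with −0.71 for RPL10A, −1.02 for RPS25 and −0.58 for RPL22. uc008sje.2 and uc008bzy.1 were low in the FLAG captures and above 0 in the RPL22 capture, at 0.39 and 0.16. Like the pair described here, uc009guh.1, uc008szp.1 and uc009euv.1 had no value in the RNA-seq files used here, whereas uc008sje.2 and uc008bzy.1 had values. Over all common transcripts, 4.50% had none.

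The transcripts were chosen with low capture ratios known, and the totals are the denominators of these ratios. The total levels were therefore not independent of the choice, and the adjusted p-values below do not allow for it. Differences in total footprint level between the lines were tested in 1 fit of all 12 libraries (limma on log2(RPKM + 1), 2 libraries per group, two-sided, Benjamini-Hochberg adjustment over 7605 transcripts). uc029sdt.2 was higher on total ribosomes of the Rpl10a line than of the Rpl22 line, at 219 ± 19.9 against 6.95 ± 1.06 RPKM (SD, n = 2 each). The log2 difference was 4.79 (SE 0.29, 95% interval 4.16 to 5.43, limma adjusted p = 8.91e-07), the largest of all transcripts tested, followed by 4.49 for uc008oqt.2. In this comparison 23% of all transcripts were called higher in the Rpl10a line, so a call by itself was frequent. The difference of uc029sdt.2 ranked highest, but that of uc008oqt.2 was close to it, given the SE of 0.29.

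uc029sdt.2 was likewise higher on total ribosomes of the Rps25 line than of the Rpl22 line, at 96.8 ± 7.07 against 6.95 ± 1.06 RPKM (SD, n = 2 each; log2 difference 3.63, SE 0.29, 95% interval 2.99 to 4.26, limma adjusted p = 6.97e-06). This difference was the second highest of the 7605, and 20.8% of transcripts were called higher there. In both comparisons every library of the FLAG line lay above every library of the Rpl22 line.

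Between the FLAG lines, uc029sdt.2 had 219 ± 19.9 RPKM in totals of the Rpl10a line and 96.8 ± 7.07 RPKM in totals of the Rps25 line (SD, n = 2 each). The log2 difference of 1.17 (SE 0.29, 95% interval 0.53 to 1.80) was the 8th highest of all and missed the threshold (limma adjusted p = 0.126), in a comparison where 0.394% of transcripts were called in either direction. A fit of the 4 total libraries alone called it (limma adjusted p = 0.0276). It also passed in the 12-library design without the first or without the second RPS25 capture library (limma adjusted p = 0.00902 and 0.00852).

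uc009vfb.1 was far more even between totals. It had 624 ± 23.8 RPKM in the Rpl10a line, 559 ± 58.8 RPKM in the Rps25 line and 423 ± 48.1 RPKM in the Rpl22 line (SD, n = 2 each). The highest of these means was 1.47 times the lowest, close to the median of 1.41 over the common transcripts, whereas for uc029sdt.2 the same quotient was 31.5. No difference in total level of uc009vfb.1 was called in the 12-library fit. The log2 difference was 0.56 for the Rpl10a line minus the Rpl22 line (SE 0.59, 95% interval −0.73 to 1.85, limma adjusted p = 0.469), 0.40 for the Rps25 line minus the Rpl22 line (SE 0.59, limma adjusted p = 0.624) and 0.16 for the Rpl10a line minus the Rps25 line (SE 0.59, limma adjusted p = 0.944). The SE is set by the spread of its RPL22 captures, which this fit pools with the totals. With the 4 totals of the compared lines alone, the first of these differences had an SE of 0.12 (limma adjusted p = 0.00872) and the second an SE of 0.10 (limma adjusted p = 0.0113).

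The processing notes name the aligner STAR for the Rpl22 line in addition to those of the FLAG lines, and tag, antibody and lysis buffer also differ. Line, processing and procedure thus cannot be told apart in the differences from the Rpl22 line. The Rpl10a and Rps25 lines share tag epitope, buffer and named tools.

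**Figure D3:**
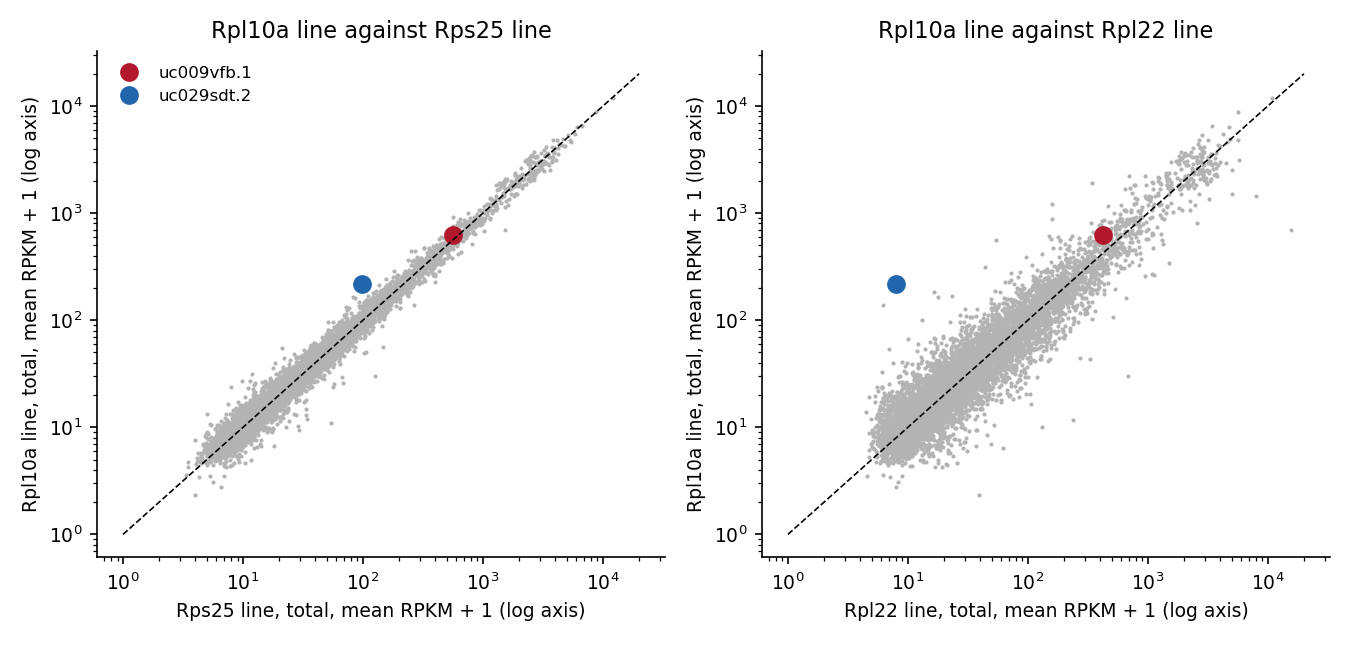
Mean total footprint density (RPKM + 1, log axes) of 7605 common transcripts in the Rpl10a line against the Rps25 line (left) and the Rpl22 line (right), each the mean of 2 libraries; the dashed line marks equal values. uc009vfb.1 lies near the line in both panels, and uc029sdt.2 lies above it, with 219 RPKM in the Rpl10a line, 96.8 in the Rps25 line and 6.95 in the Rpl22 line.

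The size of the fall can be set side by side between captures, but the same ratios chose the transcripts, so their differences are given with no test. For uc009vfb.1 the RPL10A log2 ratio minus the RPS25 log2 ratio was 0.55, RPL10A minus RPL22 was −0.10 and RPS25 minus RPL22 was −0.64 (SE 0.83 each, 12-library fit). Without the second RPL22 capture library RPL10A minus RPL22 was 1.25 and RPS25 minus RPL22 was 0.71, so their sign rests on that library. Without the second total library of the Rpl22 line, RPL10A minus RPL22 was 0.020.

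For uc029sdt.2 the RPL10A log2 ratio minus the RPS25 log2 ratio was −0.57 (SE 0.41), and 0.039 without the first RPS25 capture library. Its captures in the RPL22 line lay below the 5 RPKM of the condition on those files, so no difference from that line is drawn.

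Set against each other within a library, the transcripts came to nearly equal density in the FLAG captures. uc009vfb.1 had 1.04 and 1.21 times the RPKM of uc029sdt.2 in the RPL10A captures, against 2.96 and 2.75 times in the totals of that line. The quotient was 0.909 and 1.21 in the RPS25 captures, against 5.90 and 5.63 in the totals. In the RPL22 line it was 7.79 and 38.0 in the captures, against 73.8 and 50.6 in the totals. The RPL22 line is not counted here, as uc029sdt.2 had at most 7.7 RPKM there and was listed through its totals alone. In the FLAG lines the quotients of captures lay below those of totals. The first RPS25 capture was the only library in which uc029sdt.2 was the denser of the pair. These quotients combine the levels already given and are a description.

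**Figure D4:**
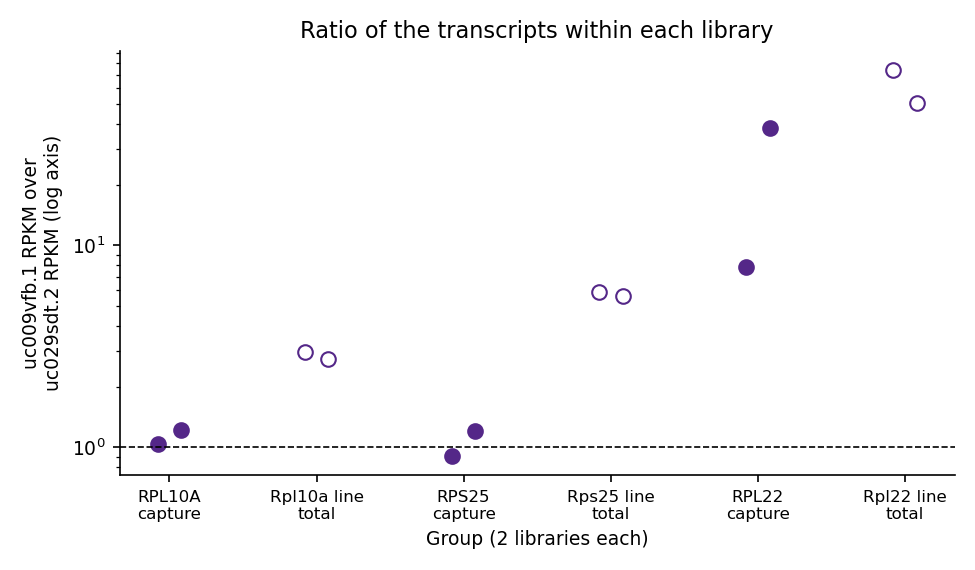
RPKM of uc009vfb.1 divided by that of uc029sdt.2 in each of 12 libraries (log axis); filled points are captures, open points totals, and the dashed line marks equal density. The quotient lies between 0.909 and 1.21 in the 4 FLAG captures and between 2.75 and 5.90 in the totals of those lines. It is 7.79 or more throughout the Rpl22 line, where uc029sdt.2 has at most 7.7 RPKM.

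The likeness of other transcripts was measured as the Pearson correlation over the 12 libraries of log2(RPKM + 1), after subtracting the mean of the 4 libraries of a line, among 3804 common transcripts at or above the median level. The libraries of a group share a preparation, so this is a description. The transcripts described here had r = 0.89 with each other. Both were chosen with low capture ratios known, and the subtraction keeps the difference between capture and total. A high r between them was thus favoured by the choice. Most like uc009vfb.1 were uc007hle.1 (r = 0.98), uc012czt.1 (r = 0.97), uc007uht.1 (r = 0.96), uc007fxu.2 (r = 0.95) and uc012dpr.1 (r = 0.95). Most like uc029sdt.2 were uc007alc.1 (r = 0.97), uc009nmb.1 (r = 0.95), uc009rph.2 (r = 0.94), uc007rpn.1 (r = 0.94) and uc007ksj.1 (r = 0.94).

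The likeness was of shape and not of size. The log2 capture ratios of the transcripts most like uc009vfb.1 ran from −0.54 for uc012czt.1 in the RPS25 line to −0.20 for uc012dpr.1 in the RPL10A line, against −2.81 or lower for uc009vfb.1 itself. uc007hle.1, for example, had 1170 to 1841 RPKM over the captures, against 1419 to 2185 RPKM over the totals. Those most like uc029sdt.2 had log2 ratios from −0.47 for uc007rpn.1 in the RPL10A line to −0.12 for uc007alc.1 in the RPL22 line. All 10 had values in the RNA-seq files, as did most common transcripts, of which 4.50% had none.

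**Figure D5:**
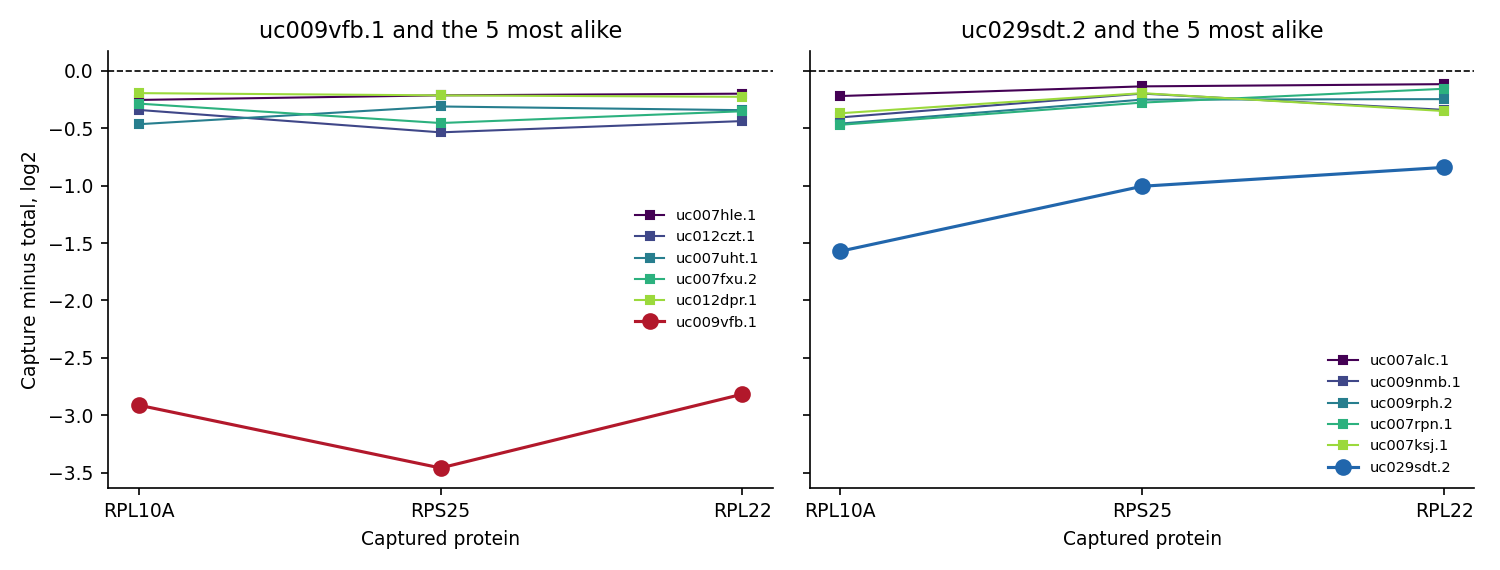
Capture minus total (log2 of RPKM + 1) in the RPL10A, RPS25 and RPL22 lines for uc009vfb.1 (left) and uc029sdt.2 (right), each with the 5 transcripts of most similar profile over 12 libraries. The similar transcripts lie between −0.54 and −0.12, whereas uc009vfb.1 lies at −2.81 or lower and uc029sdt.2 at −0.84 or lower.

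Transcripts with neighbouring identifiers were also examined, defined as the same number block and a letter code at most 10 alphabetical steps away. uc009vfb.1 had 1 such neighbour, uc009vff.1, which was low in level. It had 8.1 and 16.9 RPKM in the RPS25 captures, against 11.4 and 13.4 RPKM in the totals, and 8.8 and 8.4 RPKM in the RPL22 captures, against 4.8 and 4.7 RPKM in the totals.

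uc029sdt.2 had 5 neighbours, and 3 of them had log2 capture ratios close to its own in the lines where they had values. Some of their capture replicates lay far apart. uc029sdp.1 had 17.4 and 28.9 RPKM in the RPL10A captures, against 59.3 and 78.7 RPKM in the totals. In the RPS25 captures it had 25.2 and 8.2 RPKM, the first of them near its totals of 29.4 and 28.7 RPKM. Its log2 capture ratios were −1.56 for RPL10A and −0.95 for RPS25. uc029sdq.1 had 5.8 and 21.3 RPKM in the RPL10A captures, against 26.4 and 36.8 RPKM in the totals, with log2 ratios of −1.39 for RPL10A and −0.93 for RPS25. uc029sdy.1 had values in the RPS25 line only. There it had 41.0 and 23.4 RPKM in the captures, against 58.9 and 58.3 RPKM in the totals, with a log2 ratio of −0.90.

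For uc029sdp.1 and uc029sdq.1, as for uc029sdt.2, the totals were higher in the Rpl10a line than in the Rps25 line, where uc029sdp.1 had 29.4 and 28.7 RPKM and uc029sdq.1 had 17.6 and 15.3 RPKM. The remaining neighbours, uc029sdo.1 and uc029sdw.1, had at most 10.9 RPKM and log2 ratios of −0.44 and −0.32 in the RPL10A line. No neighbour of either transcript had values in all lines. Neighbours of uc029sdt.2 had none in the Rpl22 line, where uc029sdt.2 itself had 6.2 and 7.7 RPKM in the totals. Whether the neighbours share reads with uc029sdt.2 was not tested.

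The absence of RNA-seq values was a feature of few common transcripts, with a similar share overall and at or above the level of uc029sdt.2. Of the 7605 common transcripts 342, or 4.50%, had none in the files used here, and of the 568 with a mean density at or above that of uc009vfb.1 there were 34, itself included. Among the 1949 at or above the mean of uc029sdt.2 the share was 4.41%. Of the identifier neighbours, uc029sdo.1 had RNA-seq values. The others, uc009vff.1, uc029sdp.1, uc029sdq.1, uc029sdw.1 and uc029sdy.1, had none.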

How the data were processed

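Values were RPKM per transcript for 12 Ribo-Seq libraries, scaled by the authors to transcript length and library size per the file headers. For 8 RNA-seq libraries the deposited signal, called RPM in the file headers, served only to see which transcripts had values. Cutadapt and Bowtie2, for the Rpl22 and RNA-seq libraries also STAR, and the mm10 build are named per the submitters' processing notes; versions and filters: not given in the sources used here. Values carry 1 decimal and no transcript length, so reads could not be recovered and no count test was run.

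Groups followed the sample titles. Tests used limma 3.58.1 in R 4.3.3 on log2(RPKM + 1), with a variance trend and no filter, Benjamini-Hochberg adjusted over all transcripts, and called below 0.05; the pseudocount understates folds of low transcripts. Each line was fitted alone for capture minus total, and all 12 libraries together for differences between lines. A planned test of differences between capture ratios is not reported, as these ratios chose the transcripts. Each library was scaled by itself, and the lines were not normalized together. The limma fits were tested on simulated data. Named transcripts were the members, the 5 most alike each, the 5 next lowest and identifier neighbours; uc008zah.2 and uc008oqt.2 were added after their values were seen. Members and lists were chosen with earlier results of these data known. Alternatives were other pseudocounts (0.1 and 5), a mean of at least 10 RPKM, other scalings, no trend, a replicate block, fewer libraries and each library left out.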

Additional observations from a re-analysis of the deposited data

How the results depend on the processing

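The capture ratios of both transcripts stayed below 0 under every alternative run. With single libraries left out, the log2 ratio of uc009vfb.1 ran from −2.99 to −2.83 for RPL10A, −3.86 to −3.05 for RPS25 and −4.16 to −1.47 for RPL22. That of uc029sdt.2 ran from −1.66 to −1.48, −1.61 to −0.40 and −1.02 to −0.66; with a pseudocount of 5 it was −0.50 for RPL22, where low values weigh most, and the minimum of 10 RPKM left it no value there. The total difference of uc029sdt.2 ran, without single libraries, from 1.08 to 1.26 (Rpl10a minus Rps25), 4.66 to 4.93 (Rpl10a minus Rpl22) and 3.49 to 3.76 (Rps25 minus Rpl22), and only the first changed its call. Fits of the compared totals alone called it at 1.17 and called uc009vfb.1 at 0.56 and 0.40. Those of uc009vfb.1 ran from 0.054 to 0.27, 0.45 to 0.68 and 0.28 to 0.52. Differences of capture ratios have no test here, and some could turn in sign. For uc009vfb.1, RPL10A minus RPS25 ran from 0.14 to 0.95 and kept its sign. RPL10A minus RPL22 ran from −1.44 to 1.25 and RPS25 minus RPL22 from −1.99 to 0.71. For uc029sdt.2, RPL10A minus RPS25 ran from −1.17 to 0.039. Against the RPL22 line, where its captures lay below 5 RPKM, it ran from −0.91 to −0.55 (RPL10A) and −0.77 to 0.44 (RPS25). No difference is drawn from these ranges against the RPL22 line.

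Replicate numbers were not taken to pair libraries, as no label links numbers to cultures and same-numbered deviations correlated with r = −0.0036, 0.0077 and 0.18 in the 3 lines. The replicate block left every value of both transcripts as it was and changed no call of their totals (4.79 for uc029sdt.2, Rpl10a minus Rpl22).

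Counts over all transcripts moved more. Calls in the RPL10A capture were 124, and 190 with the 10 RPKM minimum, 38 without a trend, 202 with the replicate block and 0 without any 1 library; the RPS25 capture had 4, and 0 without a trend, and 0 to 1 with a library left out; the RPL22 capture had 0, and 692 with the block. For totals of the Rpl10a minus Rps25 line, 30 became 9 without a trend, 13 with the block and 0 to 91 without single libraries; the comparisons with the Rpl22 line (3230 and 3047) fell to as few as 1985 and 1734. The causes were not tested.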
